A study of Rattus norvegicus and Mus musculus with 61 samples.

Results

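The genes described here are 10 receptors, receptor adaptors and surface markers of microglia and macrophages: Tyrobp, Fcer1g, Fcgr1, Fcgr2b, Fcgr3, Cd14, Csf1r, Cd68, Lilr4b and Ptprc. They were found by gene symbol in the annotation of the mouse and rat arrays. All 10 had a probe set in mouse, 16 probe sets of 12488, and 4 of the 10 had one in rat, 7 probe sets of 8799. A gene was tested where its brightest probe set was above the 40th percentile of all signals in at least 3 arrays. That left 7 of the 10 in mouse, among 6355 genes tested, and 3 of the 4 in rat, among 4091. Mouse samples came from male C57BL/6 mice of 20 to 25 g, and each was RNA from 3 animals whose 4 mm disks of parieto-occipital cortex had been pooled. Injured mice, under isoflurane and oxygen, received a moderate controlled cortical impact, in which a pneumatic piston strikes the cortex, at 6 m/s with 1.5 mm deformation, and were sampled 4, 8, 24 or 72 h later (3 samples per time). Sham-operated mice were sampled at the same times (2 per time), and 2 samples were from naive mice with no surgery. Rat samples were 7 mm disks from single male Sprague-Dawley rats of 400 ± 25 g under sodium pentobarbital. Injured rats received a fluid percussion pulse of 2.5 atm, which deforms the brain without a piston, and were sampled at 30 min (5 samples), 4, 8, 24 or 72 h or 21 d (3 each). Rat sham samples numbered 4 at 30 min, 4 at 4 h and 2 at each later time, beside 3 naive samples. No group carried a transgene or deletion, and ages were not given in the sources used here. Injury disks were centred on the impact and held the contusion.

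Microglia are the resident macrophages of the brain, and after cortical injury they are joined by monocytes and neutrophils from the blood. Activating Fc receptors and many related myeloid receptors carry no signalling enzyme of their own. They pair with Tyrobp (DAP12) or Fcer1g (the Fc receptor gamma chain), small adaptors whose cytoplasmic ITAM tyrosines are phosphorylated by Src family kinases and then bind the kinase Syk. Fcgr1 and Fcgr3 encode activating receptors for IgG, and Fcgr2b encodes the inhibitory one. Cd14 hands bacterial lipopolysaccharide and some endogenous ligands to Toll-like receptor 4. Csf1r is the receptor tyrosine kinase for Csf1 and Il34 on which microglial survival depends.

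All values are array signals on the deposited linear scale, raised to a floor of 24.1 in mouse and 32.1 in rat where lower and compared as log2, so that a difference of 1 is 2-fold. Differences are injury minus time-matched sham, ± the standard error from limma, with p-values adjusted by Benjamini-Hochberg over all genes tested in that species and contrast, and called below 0.05. The median correlation of a mouse array with the others of its species was 0.941 to 0.961. It was under 0.8 for 3 rat arrays, namely sham 4 h replicates 3 and 4 and injury 30 min replicate 5 (0.608 to 0.798). The labels do not say whether the 2 mouse sham samples of a time, which share the number 1 in their titles and differ by a letter, came from separate pools, so p-values there measure the spread between arrays, which may be technical. Both mouse sham 4 h arrays had summed signals of pituitary hormone genes of 18660.1 to 20952, against 1778 to 2698 in all other mouse arrays. In cortex disks, more cells of a type and more RNA per cell cannot be told apart.

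In mouse cortex the adaptor Tyrobp (NCBI Gene 22177) rose from 8 h after the impact and was highest at 72 h. Its signal was 685 and 635 in the naive samples and 401 to 729 over all 10 uninjured samples. Injured cortex gave 710.4, 902 and 605 at 4 h, 951, 1128 and 1124 at 8 h, 1331, 1661 and 1460.1 at 24 h and 3818, 3094 and 4204 at 72 h. The 4 h arrays overlapped sham, while from 8 h on every injured sample was above every uninjured one. Tyrobp rose at 8 h by 1.17 ± 0.21 (adjusted p = 0.00127), at 24 h by 1.44 ± 0.21 (adjusted p = 0.000135) and at 72 h by 2.71 ± 0.21 (adjusted p = 3.40e-08), which is 6.56-fold. At 4 h the difference was 0.07 ± 0.21 (adjusted p = 0.964). The 8 h call was lost without sham replicate 1b (adjusted p = 0.0545).

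Fcer1g (14127), the other ITAM adaptor, was dim and did not reach the level needed for testing. Its brighter probe set gave 12.3 to 57.7 in the uninjured samples, 32.3, 15.6 and 21.4 at 4 h, 14.9, 57.9 and 9.99 at 8 h, 47.9, 16.5 and 61.4 at 24 h and 112, 195 and 145 at 72 h. The 3 injured samples at 72 h were thus the highest of all 22. In a fit of every probe set with no filter, added after the values were seen, it rose at 72 h by 2.15 ± 0.45 (adjusted p = 0.00715), where 5.83% of 12422 probe sets were called and higher. The second Fcer1g probe set, at 5.81 to 60.1 in uninjured samples, gave 74.9, 7.95 and 14.9 at 72 h and did not pass (0.27 ± 0.72, adjusted p = 0.920).

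Of the IgG receptor genes, the activating Fcgr1 (14129) rose from 8 h and the inhibitory Fcgr2b (14130) from 24 h. Fcgr1 signal was 127 to 338 in uninjured cortex and 365, 252 and 293 at 4 h, 346, 333 and 452 at 8 h, 600.5, 761 and 734 at 24 h and 961, 848 and 1028 at 72 h after injury. At 24 and 72 h the injured samples lay above all uninjured samples, and at 8 h 1 of them did not clear the highest. The differences were 1.05 ± 0.26 (adjusted p = 0.0152) at 8 h, 1.19 ± 0.26 (adjusted p = 0.00481) at 24 h and 1.78 ± 0.26 (adjusted p = 8.47e-05) at 72 h. The 8 h call rested on the low sham replicate 1c, whose signal was 127: without it the difference was 0.55 (adjusted p = 0.263), and without injury replicate 3 the adjusted p was 0.0591. It was lost as well against all uninjured samples as 1 group (0.56, adjusted p = 0.0848), with the title letter as a block (0.83, adjusted p = 0.108), with the 2 probe sets averaged (adjusted p = 0.189) and in a fit of the 8 h groups alone (adjusted p = 0.117). The 24 h call was lost without sham replicate 1c (adjusted p = 0.0758).

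Fcgr2b was dim in uninjured mouse cortex, where its signal was 11.99 to 93.6. It was above the level needed for testing in no uninjured sample, so high values after injury brought it into the tests. It reached 159, 45.1 and 67.9 at 4 h, 133, 162 and 231 at 8 h, 355, 305 and 264 at 24 h and 435, 488 and 393 at 72 h. From 8 h on, no injured sample overlapped any uninjured one. Fcgr2b rose by 3.06 ± 0.50 (adjusted p = 0.000458) at 24 h and by 4.14 ± 0.50 (adjusted p = 1.25e-05) at 72 h, with 1 of the 2 sham arrays at the floor at each of these times, so both sizes depend on the floor. With the floor at the 25th percentile they were 1.95 at 24 h and 2.47 at 72 h, and both calls held. The 8 h difference of 1.20 ± 0.50 (adjusted p = 0.163) did not pass against the sham samples of that time, and against all uninjured samples as 1 group it did (2.01, adjusted p = 0.00251).

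Fcgr3 (14131), which encodes the low-affinity activating IgG receptor, showed no such pattern on its single probe set. Its signal was 54.4 to 226 in uninjured samples. Injured samples gave 162, 193 and 117 at 4 h, 115, 62.6 and 91.0 at 8 h, 164, 103 and 138 at 24 h and 105, 173 and 111 at 72 h, all within the uninjured range. The probe set did not reach the level for testing, and with no filter its 72 h difference was -0.32 ± 0.50 (adjusted p = 0.826).

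Cd14 (12475) rose at all 4 times in mouse cortex, and of its 4 differences from sham that at 8 h was the largest. Uninjured cortex gave 768 to 1551, with the sham 4 h samples the highest at 1551 and 1219. Injured cortex gave 5938, 3258 and 3881 at 4 h, 6977, 6555 and 3975 at 8 h, 3884, 3238 and 3364 at 24 h and 1869.7, 1504 and 2016 at 72 h. Every injured sample at 4, 8 and 24 h exceeded every uninjured sample, and at 72 h they exceeded their own sham samples. Cd14 rose by 1.62 ± 0.24 (adjusted p = 0.00106) at 4 h, 2.72 ± 0.24 (adjusted p = 5.22e-07) at 8 h, 1.98 ± 0.24 (adjusted p = 1.60e-05) at 24 h and 0.86 ± 0.24 (adjusted p = 0.0190) at 72 h. The 8 h difference was 6.60-fold and the 72 h difference 1.82-fold. The 4 h call was lost without sham replicate 1c (adjusted p = 0.0508), although against all 10 uninjured samples as 1 group the 4 h difference was 2.08 (adjusted p = 2.84e-07). The part of the pituitary signal in the 4 h sham arrays in the 4 h values was not tested. The 72 h call was lost without injury replicate 1 or 3 or sham replicate 1c (adjusted p = 0.0575, 0.0722 and 0.107), or with the 2 sham arrays averaged (adjusted p = 0.118).

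Csf1r (12978) was the only tested mouse gene with no call before 72 h. Uninjured samples gave 1466 to 1869. Injured samples were at 1282, 1584 and 1594 at 4 h and 1290.4, 1499.6 and 1348 at 8 h, all below their sham samples, at 1964, 2025 and 2029.8 at 24 h and at 4042, 3409.5 and 4249 at 72 h. The differences were -0.27 ± 0.13 (adjusted p = 0.559) at 4 h, -0.35 ± 0.13 (adjusted p = 0.117) at 8 h and 0.16 ± 0.13 (adjusted p = 0.530) at 24 h, none of which passed, and Csf1r rose at 72 h by 1.13 ± 0.13 (adjusted p = 8.24e-06). Against all uninjured samples as 1 group the 8 h difference of -0.33 passed as a fall (adjusted p = 0.0208).

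Cd68 (12514), a glycoprotein mostly of phagocyte lysosomes, followed a similar late course. Its signal was 452 to 649.5 in uninjured cortex and 851, 719 and 734 at 4 h, 767, 704 and 857 at 8 h, 1189.6, 1428 and 936 at 24 h and 3497, 2168 and 3985 at 72 h. Every injured array was above every uninjured array at all 4 times, but the 4 and 8 h differences of 0.41 and 0.61 did not pass (adjusted p = 0.626 and 0.0991). Cd68 rose by 0.98 ± 0.22 (adjusted p = 0.00609) at 24 h and 2.69 ± 0.22 (adjusted p = 5.54e-08) at 72 h, and the 24 h call was lost without either sham sample (adjusted p = 0.0634 and 0.0505) or with the 2 averaged (adjusted p = 0.0832). Against all uninjured samples as 1 group the 8 h difference passed (0.50, adjusted p = 0.0340).

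Lilr4b (14727), of the gp49 family of leukocyte immunoglobulin-like receptors, was dim in all 10 uninjured samples (4.51 to 62.8) and high at every time after injury. It too was brought into the tests by its high values after injury. The injured samples gave 545, 164 and 292 at 4 h, 449, 548 and 487 at 8 h, 1179, 430.3 and 574 at 24 h and 930.4, 569.7 and 1057 at 72 h, without overlap with any uninjured sample. Lilr4b rose at 4 h by 2.87 ± 0.53 (adjusted p = 0.00789). At 8 h both sham samples were at the floor, so Lilr4b was at least 20.5-fold higher (adjusted p = 2.39e-05). The rises at 24 and 72 h were 4.50 ± 0.53 (adjusted p = 1.23e-05) and 4.48 ± 0.53 (adjusted p = 8.12e-06), with 1 of 2 sham arrays at the floor each time. With the floor at the 25th percentile, the differences were 1.91 at 4 h, 2.64 at 8 h, 3.07 at 24 h and 3.38 at 72 h, and all 4 were called. The 4 h call was lost without injury replicate 1 (adjusted p = 0.0617) or sham replicate 1b (adjusted p = 0.145), in a fit of the 4 h groups alone (adjusted p = 0.0806) and with the sham arrays averaged (adjusted p = 0.0615). A further probe set, which the annotation gives to both Lilrb4a and Lilr4b, was left out of the tests.

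Ptprc (19264), the leukocyte phosphatase CD45, was too dim to be tested in mouse. Its brightest probe set gave 5.71 to 66.5 in uninjured samples. Injured samples gave 109.5, 80.9 and 34.8 at 4 h, 37.9, 29.5 and 95.6 at 8 h, 134, 94.0 and 22.8 at 24 h and 129, 224 and 156 at 72 h, the last above all uninjured samples. With no filter the 72 h difference was 2.20 ± 0.69 (adjusted p = 0.0519) over one probe set per gene, where 7.48% of 8251 genes were called and higher, so it fell short of a call.

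**Figure D1:**
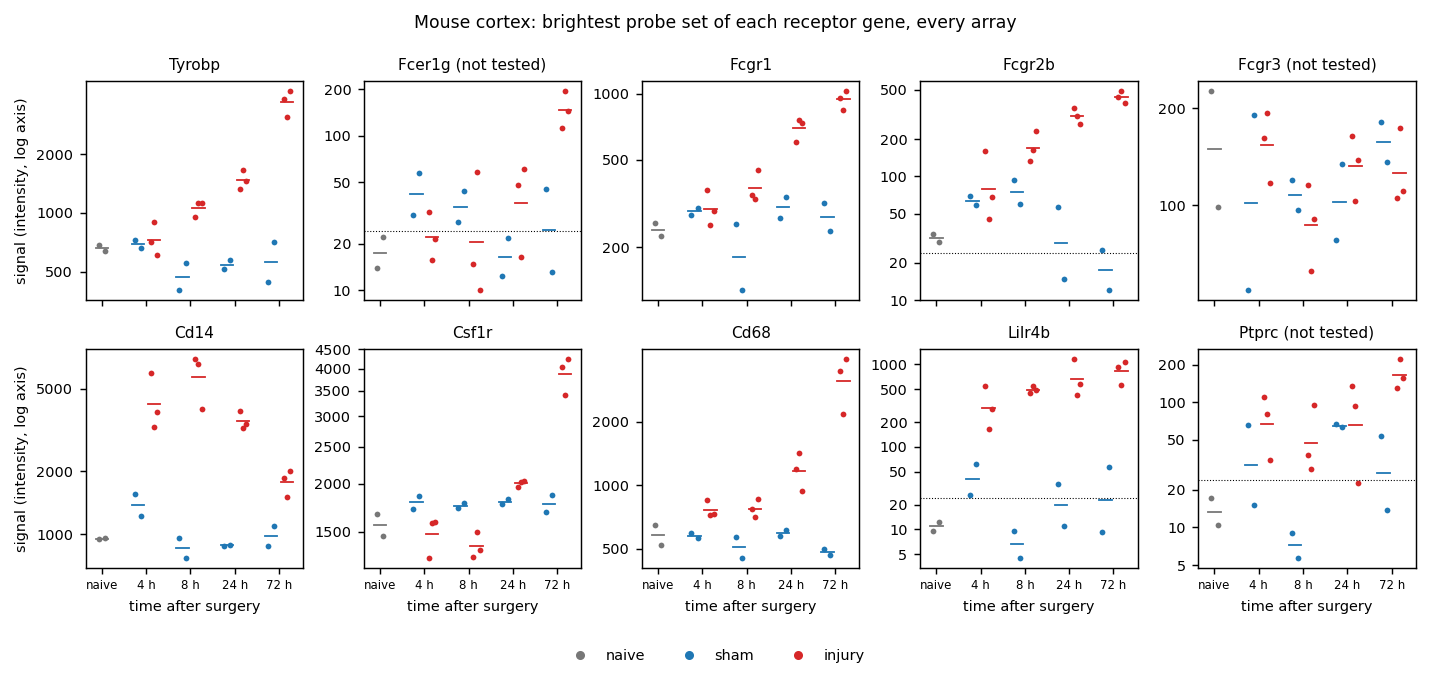
Signal of the brightest probe set of each of the 10 genes in every mouse array, on log axes, by time after surgery; points are arrays, short lines the mean of the log values, grey naive, blue sham and red injury, and the dotted line the floor. Tyrobp, Csf1r and Cd68 were highest at 72 h (Tyrobp 3818, 3094 and 4204), whereas the 3 highest Cd14 arrays were at 4 and 8 h.

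Of the 7 tested mouse genes, 5 (Tyrobp, Fcgr1, Cd14, Csf1r and Cd68) were above the filter level on uninjured arrays alone. Fcgr2b and Lilr4b reached it in injured arrays and in no uninjured one, so a high value after injury is what brought them into the tests, and they are left out of the counts here. Of the 5, 1 rose at 4 h, 3 at 8 h, 4 at 24 h and 5 at 72 h, and none fell. The shares of all tested genes called and higher were 0.677% at 4 h, 4.91% at 8 h, 6.20% at 24 h and 9.85% at 72 h. Every injured array was above every time-matched sham array for 2 of the 5 at 4 h, 4 at 8 h, and 5 at 24 and 72 h. Over all genes that held for 18.0%, 17.8%, 17.0% and 20.5%. The median difference of the 5 was 0.07, 1.05, 1.19 and 1.78 at the 4 times, beside 0.00, -0.03, -0.04 and -0.01 for all genes. Sham surgery against naive cortex gave 0 calls among the 7 in limma, and 0 at an unadjusted p under 0.05, where 0.110% of all genes were called.

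The injury effects themselves were compared between times. From 4 to 72 h the effect grew for 4 of the 5, where 3.60% of all genes grew: Tyrobp by 2.64 ± 0.30 (adjusted p = 2.00e-05), Fcgr1 by 1.74 ± 0.37 (adjusted p = 0.00744), Csf1r by 1.40 ± 0.19 (adjusted p = 0.000144) and Cd68 by 2.28 ± 0.31 (adjusted p = 0.000150). Fcgr2b grew by 3.84 ± 0.71 (adjusted p = 0.00299), or by 2.13 with the higher floor. For Cd14 the change of -0.75 ± 0.34 (adjusted p = 0.214) and for Lilr4b that of 1.61 ± 0.75 (adjusted p = 0.232) did not pass. All these changes from 4 h, and the share of all genes, use both sham 4 h arrays with the high pituitary signal. The pituitary genes Prl, Pomc, Cga and Lhb were called in the same contrast, and the part of that signal was not tested. Between 24 and 72 h, Csf1r grew by 0.97 ± 0.19 (adjusted p = 0.0219) and Cd68 by 1.71 ± 0.31 (adjusted p = 0.0149), where 0.252% of all genes did. Both of these were lost with the sham arrays of a time averaged (adjusted p = 0.440 and 0.361) and without injury 72 h replicate 1 (adjusted p = 0.0740 and 0.0523), among other single arrays. A contrast of 72 h with 8 h, added after the values were seen, gave a smaller effect of Cd14 at 72 h, by -1.86 ± 0.34 (adjusted p = 0.00558), where 0.850% of all genes were called lower. In the same contrast the effect grew for 3 of the 5, Tyrobp (1.54 ± 0.30, adjusted p = 0.00788), Csf1r (1.48 ± 0.19, adjusted p = 0.000144) and Cd68 (2.08 ± 0.31, adjusted p = 0.000792), against 1.65% of all genes. Fcgr2b grew too (2.95 ± 0.71, adjusted p = 0.0354), but with the higher floor its difference was 1.48 and the call was lost (adjusted p = 0.0927). Without sham 8 h replicate 1c, Tyrobp and Fcgr2b were lost there (adjusted p = 0.0604 and 0.0584), and Fcgr2b was lost without each of 7 other single arrays too. With the sham arrays averaged, Cd14 (adjusted p = 0.108), Tyrobp and Fcgr2b lost that call, and with the title letter as a block Cd14 (adjusted p = 0.0519) and Fcgr2b did.

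**Figure D2:**
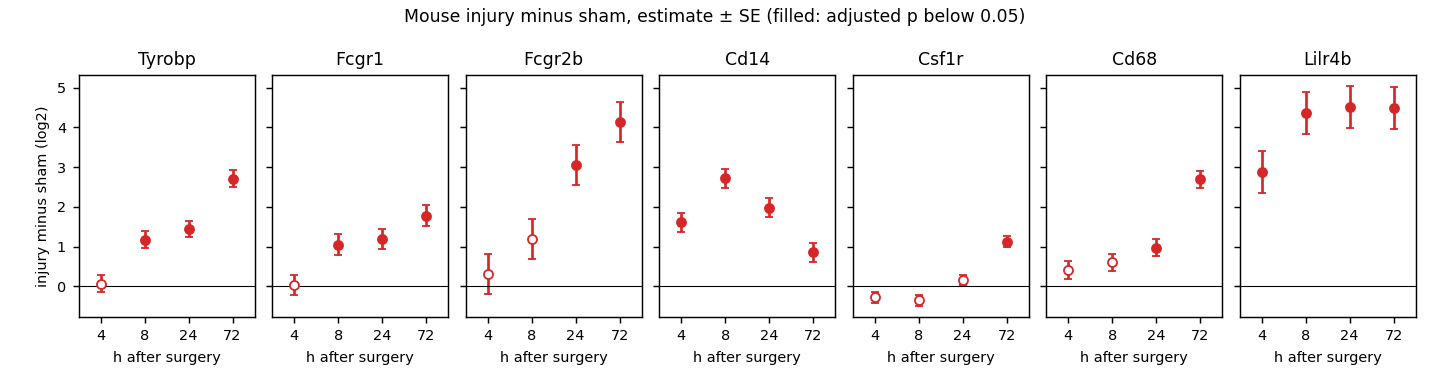
Mouse injury minus sham (log2) at 4, 8, 24 and 72 h for the 7 tested genes; points are limma estimates, bars ± 1 standard error, and filled points have an adjusted p below 0.05. Of the 4 Cd14 differences that at 8 h was the largest (2.72), the Lilr4b value at 8 h is a lower bound, and Csf1r passed only at 72 h (1.13).

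Where a mouse gene had more than 1 probe set, the probe sets did not always move together. For Fcgr1 both did: the dimmer one went from 22.2 to 58.5 in uninjured samples to 54.0, 330.0 and 101 at 24 h and 439.6, 449 and 565 at 72 h. With no filter it rose by 1.97 ± 0.51 (adjusted p = 0.0344) at 24 h, against 3.63% of probe sets, and by 4.04 ± 0.51 (adjusted p = 0.000126) at 72 h, more than its brighter partner. For Csf1r they differed: the second probe set gave 167 to 351 in uninjured samples and 242, 242 and 266 at 72 h, a difference of 0.03 ± 0.41 (adjusted p = 1.0). Averaging the 2 Csf1r probe sets gave 0.58 at 72 h (adjusted p = 0.0805), so the Csf1r call stands on 1 probe set. The growth of the Csf1r effect over time was not called either with the 2 averaged (adjusted p = 0.0874 against 4 h, 0.332 against 8 h and 0.773 against 24 h). The second probe set of Cd68 was under the floor in 21 of 22 arrays and told nothing. Of the other 2 Ptprc probe sets, one was at 93.7, 23.2 and 112 and the other at 3.58, 49.8 and 1.68 at 72 h, and neither passed.

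**Figure D3:**
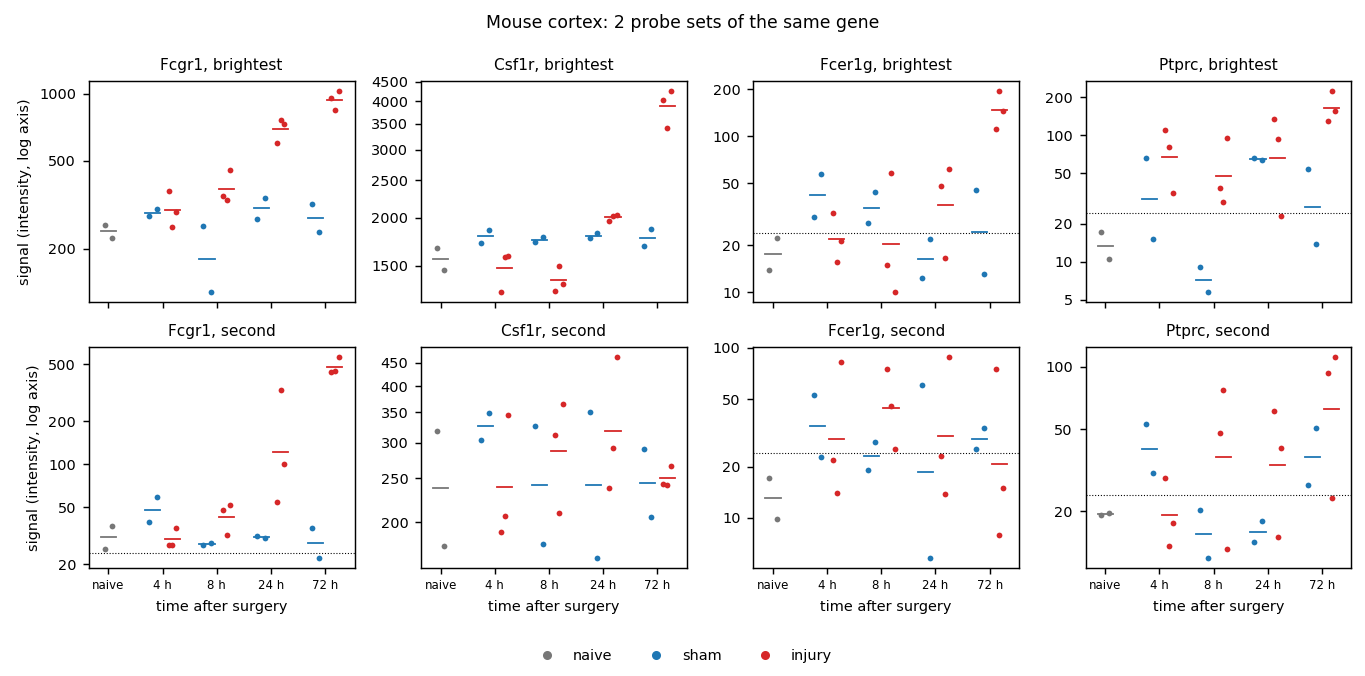
Signal in every mouse array of the brightest (top) and second (bottom) probe set of Fcgr1, Csf1r, Fcer1g and Ptprc, on log axes by time after surgery, with colours, lines and floor as in the plot of all 10 genes. Both Fcgr1 probe sets were high at 72 h, but the second Csf1r probe set stayed at 242 to 266 there.

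Around these receptors, 9 of 22 further myeloid surface receptors rose at 72 h, where 9.85% of all genes were called and higher. The shares of all genes given above, 0.677% at 4 h, 4.91% at 8 h and 6.20% at 24 h, stand beside every mouse list count at those times. Among 22 other myeloid surface receptors tested in mouse, the numbers that rose were 1 at 4 h, 4 at 8 h, 6 at 24 h and 9 at 72 h, and none fell. At 72 h these were led by the tetraspanin Cd53 (2.93 ± 0.35, adjusted p = 1.11e-05), the small glycoprotein Cd52 (2.29 ± 0.30, adjusted p = 2.42e-05) and the complement receptor C3ar1 (2.33 ± 0.36, adjusted p = 0.000142). Of 13 adaptors and effectors of ITAM signalling, 0 at 4 h, 1 at 8 h, 3 at 24 h and 5 at 72 h rose. The linker Blnk rose by 2.37 ± 0.32 (adjusted p = 3.54e-05) at 72 h, the protein kinase C isoform Prkcd by 0.87 ± 0.14 (adjusted p = 0.000328) and the phospholipase Plcg2 by 2.96 ± 0.67 (adjusted p = 0.00515). Of the 10 kinases and phosphatases, with Syk and the Src family kinases Fgr, Src and Fyn among them, only the phosphatase Ptpn6 at 24 h passed in limma (2.60 ± 0.71, adjusted p = 0.0218), and at 72 h 0 passed, 2 of the 10 having an unadjusted p under 0.05. At a share of 9.85% for all genes, 0 of 10 is near the background. The list medians at 72 h were 1.04 for the other receptors, 0.51 for adaptors and 0.35 for kinases, beside 1.78 for the 5 receptor genes and -0.01 for all genes. These lists hold every gene tested, while the 5 are only those above the filter level in uninjured arrays.

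Of 5 tested genes of Toll-like receptor signalling, 1 at 4 h, 1 at 8 h, 2 at 24 h and 0 at 72 h rose, against the shares of all genes of 0.677%, 4.91%, 6.20% and 9.85%. These were Nfkbia, the NF-kB inhibitor that NF-kB itself induces, at 4 h (0.61 ± 0.13, adjusted p = 0.0268), 8 h (1.29 ± 0.13, adjusted p = 2.72e-06) and 24 h (0.58 ± 0.13, adjusted p = 0.00685), and the adaptor Myd88 at 24 h (2.17 ± 0.59, adjusted p = 0.0218). At 72 h 0 passed in limma and 1 had an unadjusted p under 0.05. In sham against naive cortex, Lbp of this list was called in mouse (1.72 ± 0.27, adjusted p = 0.0254), where 0.110% of all genes were. Nfkbia was called in the same comparison in rat (1.21 ± 0.22, adjusted p = 0.0144), where 0.0244% were. Of the phagocyte oxidase, the enzyme complex that Fc receptors switch on, 0 at 4 h, 0 at 8 h, 1 at 24 h and 2 at 72 h of 4 rose, with Cyba at 2.05 ± 0.19 (adjusted p = 3.64e-07) and Ncf1 at 2.25 ± 0.66 (adjusted p = 0.0250) at 72 h. Of 7 tested genes on a list of ligands and related cytokines and immunoglobulins, Csf1, a ligand of Csf1r, rose at 72 h (0.91 ± 0.26, adjusted p = 0.0239). At 8 h Csf3 (0.93 ± 0.25, adjusted p = 0.0234) and the IgM heavy chain Ighm (0.56 ± 0.16, adjusted p = 0.0358) rose, and neither encodes a ligand of the 10 genes. Of 7 myeloid transcription factors, 1 at 4 h, 3 at 8 h, 4 at 24 h and 4 at 72 h rose. Cebpb was called at 4 h (1.33 ± 0.21, adjusted p = 0.00198), and Cebpa, Irf8 and Spi1, which encodes PU.1, rose at 72 h by 1.07 ± 0.14 (adjusted p = 1.96e-05), 1.57 ± 0.23 (adjusted p = 8.82e-05) and 1.29 ± 0.20 (adjusted p = 0.000140).

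**Figure D4:**
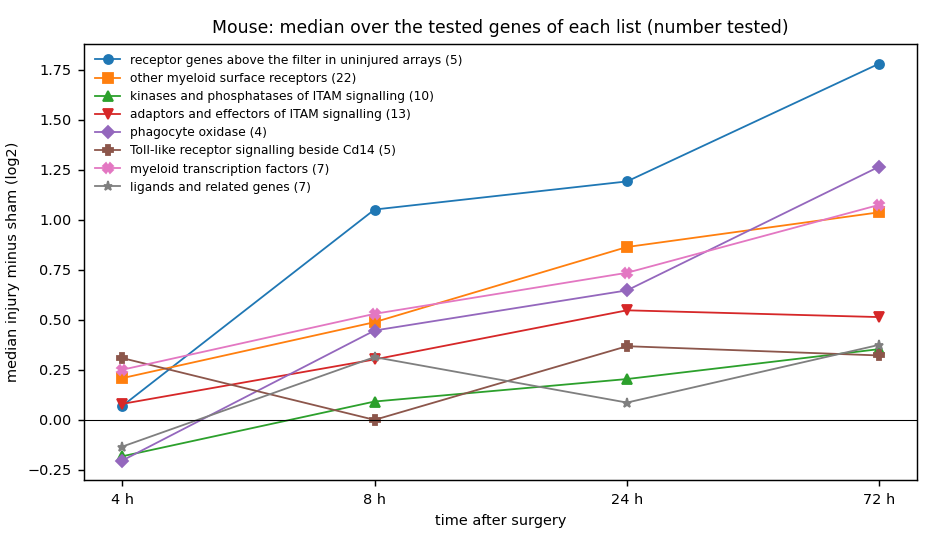
Median injury minus sham difference (log2) in mouse at 4, 8, 24 and 72 h over the tested genes of each list, with the number tested in brackets; lines join medians of 1 list. The receptor line is the median of the 5 genes above the filter level in uninjured arrays, while the other lists hold every gene tested. The 5 reached 1.78 at 72 h, and the kinases were at 0.35.

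Markers of several cell types moved at the same times, and their counts stand beside 0.677%, 4.91%, 6.20% and 9.85% of all genes called and higher at 4, 8, 24 and 72 h. Of 6 tested monocyte and macrophage markers, 1 at 4 h, 3 at 8 h, 4 at 24 h and 5 at 72 h rose, led at 72 h by Lyz2 (5.37 ± 0.33, adjusted p = 2.67e-09), Lgals3 (6.08 ± 0.51, adjusted p = 8.51e-08) and Arg1 (5.17 ± 0.62, adjusted p = 1.03e-05). The median of the list, 3.16 at 72 h, stood beside 1.78 for the 5 receptor genes. The 2 are not alike, since the list holds every tested gene and the 5 only genes above the filter level in uninjured arrays. Their summed signal was 7285 to 11378 at 72 h against 1547 to 1558 in sham. Of 4 resident microglia markers on the array, of 12 listed, 0 at 4 h, 0 at 8 h, 1 at 24 h and 3 at 72 h rose, and their summed signal was 6118 to 7607 against 2804 to 3465 at 72 h. The 3 were Sparc, Aif1 and Selplg, of which astrocytes, vessels or blood leukocytes also express each, whereas the fractalkine receptor Cx3cr1 differed by 0.29 ± 0.23 (adjusted p = 0.467). Of 6 neutrophil markers, 1 at 4 h, 2 at 8 h, 2 at 24 h and 1 at 72 h rose, with S100a8 (3.95 ± 0.37, adjusted p = 1.21e-06) and S100a9 (4.71 ± 0.67, adjusted p = 0.000139) at 8 h. The summed neutrophil signal was 3830.2 to 4789.9 against 2992 to 3398 in sham at 8 h and 2964 to 3737 against 2903 to 3099 at 72 h. Of 14 T and NK cell markers on the array, 11, with Cd3d, Cd3e and Cd3g among them, were never above the filter level in any mouse array, and neither of the 2 tested was called. Red blood cell markers rose in 2 of 3 at 4 and at 8 h. Of 8 endothelial markers, 0 at 4 h, 3 at 8 h, 3 at 24 h and 4 at 72 h rose. Of 5 oligodendrocyte markers, 0 at 4 h, 2 at 8 h, 2 at 24 h and 3 at 72 h rose, and of 7 astrocyte markers 0 at 4 h, 0 at 8 h, 1 at 24 h and 2 at 72 h rose while 2 fell at 8 h and 1 at 24 h. Of 5 B cell markers 1 rose at 8 h, of 3 mast cell and basophil markers 1 fell at 24 h, and of 8 neuron markers 0 were called in limma at any time, with at most 1 at an unadjusted p under 0.05. The part of these cells in the rise of the receptor genes was not tested.

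Across the 22 mouse arrays the receptor genes did not all follow one course. As a description over arrays that share groups and scale, Tyrobp correlated most with Cd68 among the 7 (Pearson r = 0.94) and least with Cd14 (r = 0.35). Cd14 and Csf1r had the lowest value of all pairs (r = -0.22). Outside the set, the genes most like Tyrobp in log2 signal were C1qb (r = 0.97), S100a6 and Lyz2. Those most like Cd68 were Lyz2 (r = 0.97), Cyba and C1qb. For Csf1r they were Stab1 (r = 0.95), Mpeg1 and Grn, and for Fcgr2b Serpina3n (r = 0.96), A2m and Lgals3. For Fcgr1 they were Gfap (r = 0.93), Cd52 and Tagln, and for Lilr4b Ahnak (r = 0.96), Cd93 and Anxa2. For Cd14 they were S100a9 (r = 0.97), S100a8 and Ier3, 2 of which were also on the neutrophil list.

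In rat cortex, Fcgr2b (289211) was the only one of the 3 tested genes with a call. Its signal was 156, 147 and 149 in naive samples, and 44.0 to 538 over all 19 uninjured samples, the highest being sham 30 min replicate 3. Injured samples ran from 142 to 310.3 (median 242) at 30 min, and were 332, 648 and 149.6 at 4 h, 591, 707 and 524 at 8 h, 782, 502 and 1162 at 24 h, 938, 927 and 1029 at 72 h and 191, 247 and 289 at 21 d. From 8 to 72 h they lay above the sham samples of their time, and at 21 d they overlapped sham. Sham samples of the other times gave 149.5, 156, 538 and 276 at 30 min, 124, 214, 295 and 383 at 4 h, 266 and 161 at 8 h, 184 and 189 at 72 h and 226 and 164 at 21 d. Fcgr2b rose by 2.96 ± 0.58 (adjusted p = 0.00967) at 24 h, where 0.269% of genes were called and higher, and by 2.37 ± 0.58 (adjusted p = 0.0222) at 72 h, where 2.10% were. The 24 h sham samples were 44.0 and 222: without the lower one, sham replicate 1, the difference was 1.79 (adjusted p = 1.0), without injury replicate 3 the adjusted p was 0.0941, and in a fit of the 24 h groups alone it was 0.157. Without 1 of 4 single arrays, the 72 h difference stayed between 2.32 and 2.40 but the call was lost (adjusted p = 0.0623 and 0.0856 without injury replicates 2 and 3, 0.219 and 0.181 without sham replicates 1 and 2). Without the 3 arrays that stood apart, adjusted p was 0.00484 at 24 h and 0.00722 at 72 h. At 8 h the difference of 1.54 ± 0.58 (adjusted p = 0.375) did not pass, though against all uninjured samples as 1 group it did (1.67, adjusted p = 0.0145).

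The other rat comparisons gave 0 calls among the 3 genes in limma. At 30 min, 4 h and 21 d, 0 had an unadjusted p under 0.05, and 0.0244%, 2.93% and 0% of all genes were called and higher. At 8 h that share was 0.611%, and 1 of the 3, Fcgr2b, had an unadjusted p under 0.05. Every injured array was above every sham array for 2 of the 3 at 8, 24 and 72 h, where 19.5%, 16.4% and 19.0% of all genes were. Sham against naive had 0 calls and 0 at an unadjusted p under 0.05, and 0.0244% of genes called. All rat sham samples carry the title letter a, the naive ones b or c, and the injured 4 h ones b. In sham against naive and at 4 h, letter and group therefore cannot be told apart. The injury effect of Fcgr2b differed between 72 and 4 h by 1.93 ± 0.76 (adjusted p = 0.112) and between 21 d and 72 h by -2.06 ± 0.82 (adjusted p = 0.570), where 4.72% and 0.171% of genes were called. Without sham 4 h replicate 1, the first of these passed (2.23, adjusted p = 0.0415).

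Rat Cd14 (60350) was measured by 2 probe sets, and neither passed at any time. The brighter one gave 448 and 380.2 in sham and 847, 706 and 936 in injured cortex at 8 h, and 659.6 and 585 against 977, 917 and 1069 at 24 h, without overlap. The differences were 0.998 ± 0.68 (adjusted p = 0.773) and 0.67 ± 0.68 (adjusted p = 1.0). At 4 h the sham samples spread from 319 to 2946, the 2 high ones being the arrays that stood apart, and the difference was -0.68 ± 0.57 (adjusted p = 0.417), or 0.57 (adjusted p = 0.861) without the arrays that stood apart. On the dimmer probe set the 4 h difference had the opposite sign: sham gave 268, 37.1, 919 and 158 and injury 542, 622 and 378, a difference of 1.37 ± 0.64 (adjusted p = 0.165), or 2.34 ± 0.60 (adjusted p = 0.0818) without the arrays that stood apart. That probe set gave 221 and 143 against 872, 483 and 542 at 8 h and 302 and 285 against 641, 836 and 1163 at 72 h, with differences of 1.78 ± 0.77 (adjusted p = 0.564) and 1.54 ± 0.77 (adjusted p = 0.378).

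Rat Ptprc (24699) had 3 probe sets, and the 2 dim ones rose at 72 h while the bright one did not pass. At 72 h both dimmer probe sets were under the floor of 32.1 in both sham samples. Injured cortex gave 122, 186 and 381 on one and 91.3, 208 and 392 on the other, so both rises are lower bounds. Over all 19 uninjured samples the median of each was under the floor. The highest uninjured value was 525.9 on the former, above every injured sample at 72 h. On the latter it was 165.9, above the lowest injured sample, so neither probe set was separated from all uninjured samples. With no filter these probe sets rose at 72 h by at least 2.68 ± 0.66 (adjusted p = 0.0273) and 2.61 ± 0.64 (adjusted p = 0.0275), against 1.61% of 8740 probe sets. The brightest probe set gave 188 and 275 in sham and 332, 981 and 529 in injured cortex, a difference of 1.29 ± 0.55 (adjusted p = 0.236). That probe set was at 989 to 1239.6 in all 5 samples taken at 24 h, sham and injured alike, and no higher than 981 in the other 34. Csf1r (307403) in rat was at 28.3 to 109 in uninjured samples and 81.7, 70.2 and 177 at 72 h, below the level for testing in every array.

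**Figure D5:**
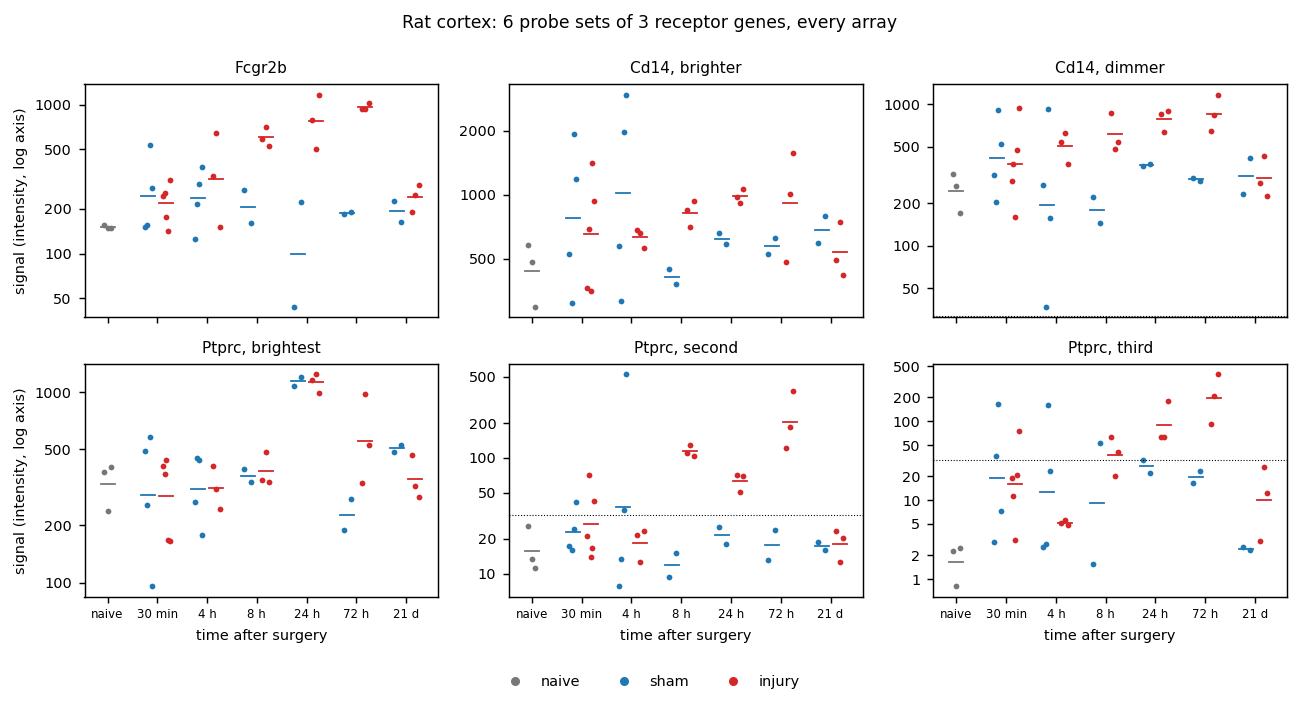
Signal in every rat array, on log axes, of the Fcgr2b probe set, the 2 Cd14 and the 3 Ptprc probe sets by time after surgery (naive grey, sham blue, injury red; short lines are means of log values, the dotted line the floor). Fcgr2b in injured cortex was 927 to 1029 at 72 h, and the brightest Ptprc probe set was high in sham and injury alike at 24 h.

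Promoter sequences were looked up for rat, where Fcgr2b and 2 probe sets of Ptprc rose at 72 h, in RefSeq's windows from 250 bases before to 50 after a gene's start. Of the 10 genes, 4 matched by symbol, Cd14, Cd68, Csf1r and Ptprc, and each held at least 1 copy of GAGGAA, the core that PU.1 is known to bind, or of its reverse complement. Over all 33469 windows of that length, 27.6% held one on either strand. The Ptprc window, chr13:52259697-52259996 on the minus strand of GRCr8, is shown because Ptprc marks all leukocytes and Spi1 was among the risen factors in mouse. Its single match, in capitals, starts 163 bases before the gene's start.
Ptprc: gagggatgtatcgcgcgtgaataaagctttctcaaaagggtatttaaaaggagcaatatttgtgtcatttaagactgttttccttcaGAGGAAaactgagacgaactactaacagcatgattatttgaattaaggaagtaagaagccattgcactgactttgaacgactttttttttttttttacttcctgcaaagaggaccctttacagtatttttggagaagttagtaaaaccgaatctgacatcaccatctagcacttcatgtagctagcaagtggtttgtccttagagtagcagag
A match describes the letters only and was not measured as binding. In rat, Spi1 was not among the called genes. Of the listed myeloid transcription factors only Cebpb was called there, at 4 h (2.05 ± 0.44, adjusted p = 0.00986 in limma).

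The pathway lists in rat had fewer tested genes, and their counts stand beside 0.611% of all genes called and higher at 8 h and 2.10% at 72 h. Among 15 other myeloid surface receptors, 3 rose at 72 h, namely Cd53 (2.85 ± 0.54, adjusted p = 0.00223), Cd37 (1.90 ± 0.44, adjusted p = 0.0144) and P2ry12 (1.57 ± 0.44, adjusted p = 0.0477). P2ry12, the purine receptor of resident microglia, was also one of the 2 of 4 resident microglia markers that rose, with Aif1 (2.15 ± 0.47, adjusted p = 0.00861), although the summed signal of those 4 was 11479 to 13829.8 against 15551 to 20184 in sham. P2ry12 had fallen at 4 h (-1.41 ± 0.37, adjusted p = 0.0351) and 8 h (-1.81 ± 0.44, adjusted p = 0.0439). Without the arrays that stood apart the 4 h difference was -1.39 ± 0.40 (adjusted p = 0.119), so that call was lost, and the 8 h one was -1.81 ± 0.40 (adjusted p = 0.0128). The oxidase subunit Cyba rose at 72 h in rat as well (3.46 ± 0.52, adjusted p = 0.000102), and of 9 kinases and phosphatases 1 passed in the injury comparisons, the Src family kinase Lyn at 8 h (2.39 ± 0.59, adjusted p = 0.0439). The monocyte and macrophage markers summed to 9249 to 29319 against 2031 to 2425 in sham at 72 h, and 3 of 5 rose. The neutrophil markers summed to 4444 to 9586 against 391 to 788 at 8 h, and 3 of 5 rose. Their part in the Fcgr2b and Ptprc values was not tested.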

How the data were processed

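The deposited files hold 1 array intensity per probe set for 22 mouse and 39 rat samples, on a linear scale. Their 2% trimmed mean is about 800 on every array, and the software that made them is not given in the sources used here. Control probe sets (66 mouse, 59 rat) were left out. Signals under the pooled 10th percentile were raised to it and taken to log2. A probe set entered the tests when 3 or more arrays of its species exceeded the 40th percentile of all signals (193 mouse, 202 rat), probe sets with 1 gene symbol in the platform annotation were named, and the brightest represented its gene. One limma 3.58.1 model per species (R 4.3.3, trend, 13 and 26 residual degrees of freedom) gave each contrast, with Benjamini-Hochberg adjustment, and was tested on simulated data. The 10 genes and the other lists were chosen with earlier results of these data known. Of each other list, at most the 3 called genes with the smallest adjusted p per contrast were named, with defining cell markers, and for each tested mouse gene the 3 genes with the highest correlation. The number of arrays limits the precision. Alternatives were a higher floor at the 25th percentile, testing without the filter, quantile normalization, averaged probe sets, all uninjured arrays as 1 control group, the compared groups alone, averaged sham arrays, blocks and single arrays left out. Rat samples were not treated as paired by replicate number. Deviations of same-numbered arrays correlated from -0.41 to 0.36, and with so few arrays per group this cannot decide whether they were paired. RefSeq promoters were matched by symbol. Figures used matplotlib 3.10.9.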

Additional observations from a re-analysis of the deposited data

Results flagged for a closer look

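By a test of that difference, the mouse injury effect differed between times for Tyrobp, Fcgr1, Cd14, Csf1r and Cd68. It also did for Fcgr2b, which only high values after injury brought into the tests. Of all genes tested, 3.60% had a larger effect at 72 h than at 4 h and 0.252% than at 24 h. Against 8 h, 1.65% were larger and 0.850% smaller. At 72 h against 4 h the effect was larger for Tyrobp by 2.64, Fcgr2b by 3.84, Fcgr1 by 1.74, Csf1r by 1.40 and Cd68 by 2.28 on the log2 scale. At 72 h against 24 h it was larger for Csf1r by 0.97 and Cd68 by 1.71. At 72 h against 8 h it was larger for Tyrobp by 1.54, Fcgr2b by 2.95, Csf1r by 1.48 and Cd68 by 2.08, and for Cd14 the difference was -1.86. The comparison with 4 h uses both sham 4 h arrays with the high pituitary signal, whose part in it was not tested. The comparison with 8 h was chosen after the values were seen. No Csf1r growth was called with its probe sets averaged (adjusted p = 0.0874 against 4 h, 0.773 against 24 h and 0.332 against 8 h in limma). With sham arrays averaged, Csf1r and Cd68 lost their calls against 24 h. Tyrobp, Fcgr2b and Cd14 then lost theirs against 8 h.

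A mouse probe set that the annotation gives to both Lilrb4a and Lilr4b was left out of the tests, and its highest injured array was at 524. It was at 4.74 to 65.1 in the 10 uninjured arrays. Injured arrays were at 67.9 to 187 at 4 h, 199 to 268 at 8 h, 189 to 393 at 24 h and 277 to 524 at 72 h, all above the uninjured ones. Which of the 2 genes it measured was not tested.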

How the results depend on the processing

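Of 1247 values of the genes under an alternative, 1180 kept their side of the threshold, 58 lost a call, 8 gained one and 1 reversed. The 1247 include values of results with no call in the main fit, which had none to lose, so the 58 losses are not a share of 1247 calls. Values that passed in neither fit could change sign and still be counted among the 1180. The reversal was rat Ptprc at 24 h, which went from -0.02 to 1.62 (adjusted p = 0.0146) against all uninjured arrays. Its mean signal at 24 h was 1139 in sham and 1130 in injured samples, while the median over all naive and sham arrays was 393. Injured and sham samples of 24 h thus did not differ, and the cause of their shared level was not tested. Of 19 called mouse injury results, 11 kept their call under every alternative run. These and the mouse counts that follow cover all 7 tested genes. Among them are Fcgr2b and Lilr4b, which only high values after injury brought into the tests. At 4 h in mouse, 2 calls became 1 in a fit of the compared groups alone and 1 with sham arrays averaged, and leaving out single arrays gave 1 to 2. For 72 h against 24 h in mouse, 2 calls became 1 with probe sets averaged and 0 with sham arrays averaged, and 0 to 3 without single arrays. For 72 h against 8 h, 5 became 3 with the title letter as block, 2 under averaged sham arrays and 3 to 5 without single arrays. With the floor at the 25th percentile the Fcgr2b difference there went from 2.95 to 1.48 (adjusted p = 0.0927) and lost its call. In rat, all uninjured arrays as 1 control group gave 1 call at 8 h in place of 0 and 2 at 24 h in place of 1, and the compared groups alone gave 0 at 24 h. Leaving out single rat arrays gave 0 to 1 calls at 24 h, 0 to 1 at 72 h and 0 to 1 for 72 h against 4 h. In the fit with the replicate block, rat Fcgr2b was still the 1 call at 24 h and at 72 h, and the block changed no other call. Whether rat numbers pair the samples could not be decided. The title letter block could not be fitted for mouse 4 h, sham against naive and 72 h against 4 h. No such block was run in rat, where letter and group cannot be told apart at 4 h or in sham against naive. Dim signals held at the floor limit the sizes for Fcer1g, Fcgr2b, Lilr4b and mouse Ptprc, and 2 sham arrays per time limit every mouse comparison.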

Other observations

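The 5 rat arrays taken at 24 h, 2 sham and 3 injured, had higher median signals than the other 34. The titles of these 5, and of no other rat sample, carry an f after the time. Their median signals over all probe sets were 398 to 409, and the highest of the others was 396. Single arrays of other times came close, namely sham 4 h replicate 4 at 396, injury 72 h replicate 2 at 390 and sham 30 min replicate 3 at 382. A high median was thus not confined to 24 h. Whether single genes differed beyond this shift was not tested. Of 4091 genes tested, 63 were higher and 9 lower in all 5 than in each of the other 34. The 63 were of many kinds, with Amelx, Ivl, Nppb and Scn11a among them. Cd52, a leukocyte surface glycoprotein, and Ptprc on its brightest probe set were on the list too, and no gene type in it was tested. The sham arrays share this level with the injured ones, so the time-matched comparison at 24 h does not show it.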
